A study of Mus musculus with 8 samples.

Results

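The 43 genes described here encode the machinery that copies the genome in S phase, and they are followed over the maturation of red cell precursors, with blood progenitors and neutrophil stages beside them. They were taken by name from the deposited gene-by-cell count table, which holds 19669 genes, and all 43 had a row. The cells came from erythroblastic islands, clusters of erythroblasts around a central macrophage, isolated on BSA gradients and taken apart with EDTA and gentle mechanical force. The tissues were bone marrow and spleen of male Sle1.Yaa mice, a strain prone to lupus. The transgenic mice carried a human TLR8 transgene, are labelled anemic, and gave 2 bone marrow and 2 spleen libraries, and the Sle1.Yaa controls without it, labelled non-anemic, gave 3 bone marrow libraries and 1 spleen library. All groups therefore share the Sle1.Yaa background, and neither the promoter of the transgene nor the age of the mice is given in the sources used here.

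DNA is copied in steps that are well known. Origins are licensed in G1 when the origin recognition complex, Cdc6 and Cdt1 load rings of the Mcm2 to Mcm7 helicase; in S phase Cdc45, the GINS complex and Mcm10 switch the helicase on, polymerase alpha with its primase starts each strand, and the PCNA clamp, placed by replication factor C, holds the polymerases that extend it. Most of these genes are transcribed under E2F factors from late G1 onward. Erythroblasts divide rapidly while they fill with hemoglobin and then leave the cycle before they lose the nucleus, and neutrophil precursors divide in the marrow and stop before they mature.

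The table pools 24942 cells and 248384567 UMIs (unique molecular identifiers, each counting 1 captured RNA molecule), with a median of 7554 UMIs a cell. Its columns carry cell barcodes only, which fall into 8 alphabetically sorted runs of 447 to 6787 cells. The runs match the labelled libraries in number, but nothing names them, so transgenic and control mice are not compared. The table therefore counts as 1 sample: no p-value is given, and the range over runs with at least 20 cells of a group stands for the spread. Of the barcodes, 287 appear in more than 1 run, in 1031 columns or 4.13% of them, and leaving these columns out changed none of the counts of genes given below.

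Clusters called erythroid-like held 10210 cells. Their cells were cut into 5 stages by the share of globin RNA among all UMIs of the cell, at 2, 20, 60 and 80%, a measure that none of the 43 genes enters. The stages held 1148, 1833, 3215, 2119 and 1895 cells. Erythroid markers were present in every stage, with levels in CPM (UMIs of the gene per 1000000 non-globin UMIs). Alas2, the first enzyme of erythroid heme synthesis, had 18598 at 80% globin or more and 29.0 under 2%. The early carbonic anhydrase Car1 had 58.4 at 60 to 80% and 1371 under 2%. In stem and multipotent progenitor-like cells these genes had 5.85 and 89.0, so Car1 at 60 to 80% globin was not above them. Both genes were among the markers used to name clusters. Kit, a receptor of early progenitors, was low throughout, at 16.5 under 2% and below that in the later stages, against 114 in stem and multipotent progenitor-like cells. A shallow cluster with a median of 1399 UMIs a cell, led by Mt2 and Car1, supplied 733 of the 1148 cells under 2% globin. A cluster with a median of 21068 UMIs supplied another 369. Each had only 1 erythroid marker among its 50 leading genes, with 20 and 25 erythroid markers detected. Cells below 2000 UMIs made up 38.9, 31.6, 6.53, 2.64 and 0.422% of the 5 stages.

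Part of the promoters held letters that E2F factors are known to prefer. RefSeq start sites (build GRCm38.p6) were given for 35 of the 43 genes. A window reached from 250 bases before to 50 after each start, and a gene with several starts had several windows. In any window, 13 of the 35 genes (37.1%) held TTTGGCGC, TTTCGCGC, TTTGCCGC or TTTCCCGC on either strand, against 704 of all 27025 genes of the RefSeq table (2.61%). CCAAT, the letters bound by NF-Y, stood in windows of 23 of the 35 genes (65.7%), against 41.1% of all genes. TTTGAA, the letters of the element found in many mitotic promoters, stood in those of 5 of the 35 (14.3%), against 20.2% of all genes. The genes with E2F letters were Cdc6, Cdt1, Orc1, Mcm3, Mcm5, Mcm6, Mcm7, Gins3, Rfc3, Pola1, Pold1, Lig1 and Uhrf1. A match describes the letters only, and a window without one says nothing about the factor.

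For 6 of the genes with E2F letters, from different steps of replication, the 250 bases before the RefSeq start whose window held the letters are printed 5′ to 3′ to show how these letters lie, with E2F and CCAAT letters of either strand in capitals. They lie at chr11:98907901-98908150 (plus strand) for Cdc6, chr5:138171884-138172133 (minus strand) for Mcm7, chr8:95633309-95633558 (plus strand) for Gins3, chr5:151651209-151651458 (minus strand) for Rfc3, chrX:93632156-93632405 (minus strand) for Pola1 and chr17:56304063-56304312 (plus strand) for Uhrf1.
Cdc6: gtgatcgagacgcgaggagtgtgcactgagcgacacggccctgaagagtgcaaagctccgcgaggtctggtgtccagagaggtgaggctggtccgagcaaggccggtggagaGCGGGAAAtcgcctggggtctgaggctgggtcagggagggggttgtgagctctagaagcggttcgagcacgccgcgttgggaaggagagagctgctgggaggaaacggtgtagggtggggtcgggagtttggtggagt
Mcm7: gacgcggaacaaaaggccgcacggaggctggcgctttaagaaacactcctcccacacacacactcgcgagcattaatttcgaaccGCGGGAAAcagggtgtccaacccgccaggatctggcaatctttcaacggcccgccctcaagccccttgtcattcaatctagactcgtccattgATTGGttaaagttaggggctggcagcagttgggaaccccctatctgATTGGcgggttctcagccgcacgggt
Gins3: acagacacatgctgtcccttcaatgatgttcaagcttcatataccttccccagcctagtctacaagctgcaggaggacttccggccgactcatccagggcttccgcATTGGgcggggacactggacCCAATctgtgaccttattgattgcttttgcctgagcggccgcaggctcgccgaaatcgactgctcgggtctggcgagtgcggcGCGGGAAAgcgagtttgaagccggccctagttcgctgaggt
Rfc3: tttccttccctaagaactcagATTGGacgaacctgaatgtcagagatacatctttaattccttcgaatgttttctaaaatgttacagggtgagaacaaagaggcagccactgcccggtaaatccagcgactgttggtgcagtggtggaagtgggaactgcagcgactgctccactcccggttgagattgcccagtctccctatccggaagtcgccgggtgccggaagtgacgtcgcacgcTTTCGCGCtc
Pola1: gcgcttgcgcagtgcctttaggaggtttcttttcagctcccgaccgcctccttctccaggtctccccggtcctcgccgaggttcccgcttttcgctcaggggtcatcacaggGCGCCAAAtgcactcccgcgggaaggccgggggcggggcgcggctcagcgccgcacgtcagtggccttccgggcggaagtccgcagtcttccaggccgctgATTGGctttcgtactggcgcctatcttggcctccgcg
Uhrf1: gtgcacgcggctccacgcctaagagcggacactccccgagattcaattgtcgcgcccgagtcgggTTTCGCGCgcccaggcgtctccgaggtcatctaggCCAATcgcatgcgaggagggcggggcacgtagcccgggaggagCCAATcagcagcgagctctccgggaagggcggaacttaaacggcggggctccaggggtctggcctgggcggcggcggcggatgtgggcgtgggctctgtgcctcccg
In the GENCODE annotation of GRCm38, the stretches of Cdc6, Mcm7 and Uhrf1 lie inside the annotated gene, those of Gins3 and Rfc3 overlap its start, and that of Pola1 lies directly before it. In these stretches Cdc6 had E2F letters and no CCAAT, and Mcm7, Gins3 and Uhrf1 each had 1 E2F match and 2 CCAAT matches.

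Levels below are non-globin CPM of the stage, as just given, so that the filling of the cell with globin RNA does not itself lower them. Summed over the 43 genes, the level was 7472 under 2% globin, 11251 at 2 to 20%, 9439.9 at 20 to 60%, 1878 at 60 to 80% and 1083 at 80% or more. The lowest, median and highest runs were 6142, 6964 and 9167 under 2%, 9752, 11385 and 12374 at 2 to 20%, 7668, 9679 and 10305 at 20 to 60%, 868, 1822 and 3450.2 at 60 to 80% and 567, 1104 and 1535 at 80% or more. Every run at 2 to 20% lay above every run under 2%, and every run at 60 to 80% lay far below every run at 20 to 60%, while the runs of the last pair of stages overlapped. In UMIs per cell the sums were 62.5, 123, 60.1, 5.25 and 1.06. In such sums, fewer cells that transcribe the genes and less RNA in each cell cannot be told apart.

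**Figure D1:**
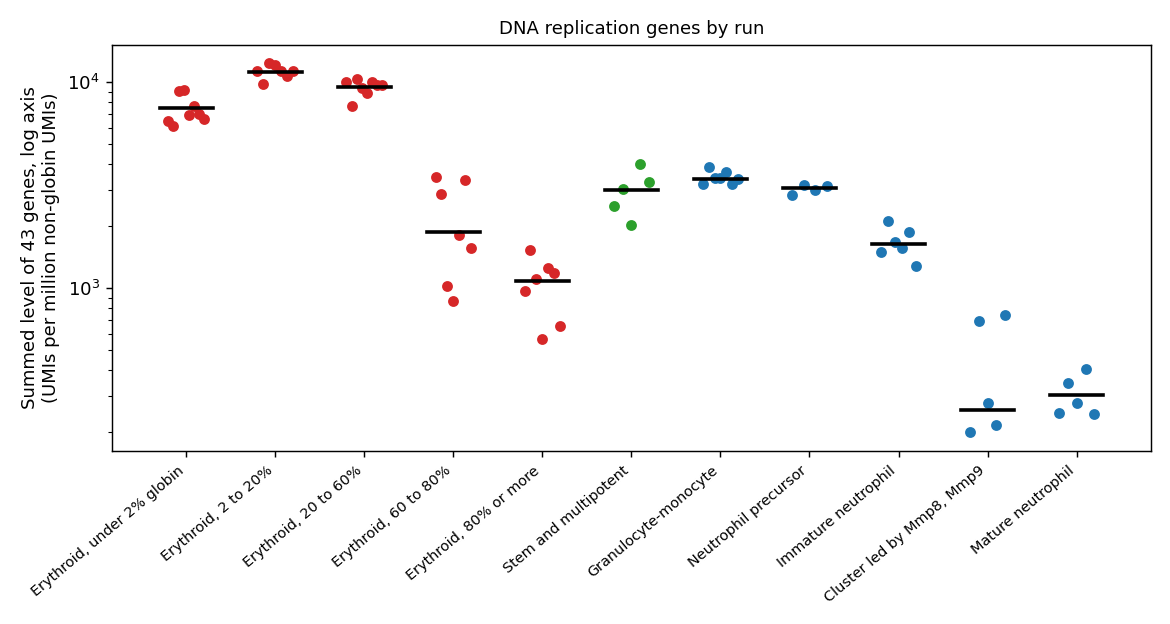
Summed level of the 43 DNA replication genes (non-globin CPM, log axis) in 11 groups of cells. Each point is a run with at least 20 cells of the group, and the bar is the value over all runs. The bars of the erythroid stages at 2 to 20% and 20 to 60% globin lie above those of all other groups. Points under 2% globin overlap those at 20 to 60%.

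A gene was counted as higher or lower between stages when the pooled levels, with 10 added to both, differed at least 2-fold and every run with 20 cells of both stages had the same sign. Genes of at least 20 in either stage entered. At 2 to 20% against under 2% globin, 5 of the 43 genes were higher and 0 lower, against 6.01% of all 5656 measured genes higher and 7.89% lower. The higher genes were Rrm2, Pcna, Ccne2, Tk1 and Cdc6. The median log2 difference of the 43 was 0.56 (single runs 0.43 to 0.78), against -0.10 for all genes, and 39 of the 43 were above 0. Most differences were thus above 0 but short of the 2-fold limit.

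At 20 to 60% against 2 to 20% globin, 0 genes were higher and 1 was lower, with a background of 6.03% higher and 6.27% lower. The gene that fell was Dut. The median log2 difference was -0.40 (single runs -0.52 to -0.19), against -0.04 for all genes. Scaled to all UMIs, globin included, 17 of the 43 were lower at this step, and with stages cut at 1, 10, 50 and 75% globin the count was 0. On the scale of all UMIs the median log2 difference of all genes was -0.50. The share of all genes lower on that scale is not given, so the 17 have no background.

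The largest fall between successive stages came at the next step. Within the stage at 20 to 60% globin the summed level was already falling, from 11530 at 20 to 30% to 5925 at 50 to 60%. At 60 to 80% against 20 to 60% globin, 40 of the 43 genes were lower and none higher, against 16.9% of all 4607 measured genes lower and 6.40% higher. The median log2 difference was -2.08 (single runs -2.78 to -1.40), against -0.43 for all genes. Orc1, Tk1 and Rfc5 were not counted, each because at least 1 run did not share the sign and Orc1 also because it stayed within the 2-fold limit, with pooled differences of -0.71, -1.35 and -1.52. Set against the stage at 2 to 20% globin, 40 of 43 were again lower at 60 to 80%, where the background was 32.8%, and here Orc1, Tk1 and Rrm2 were not counted.

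**Figure D2:**
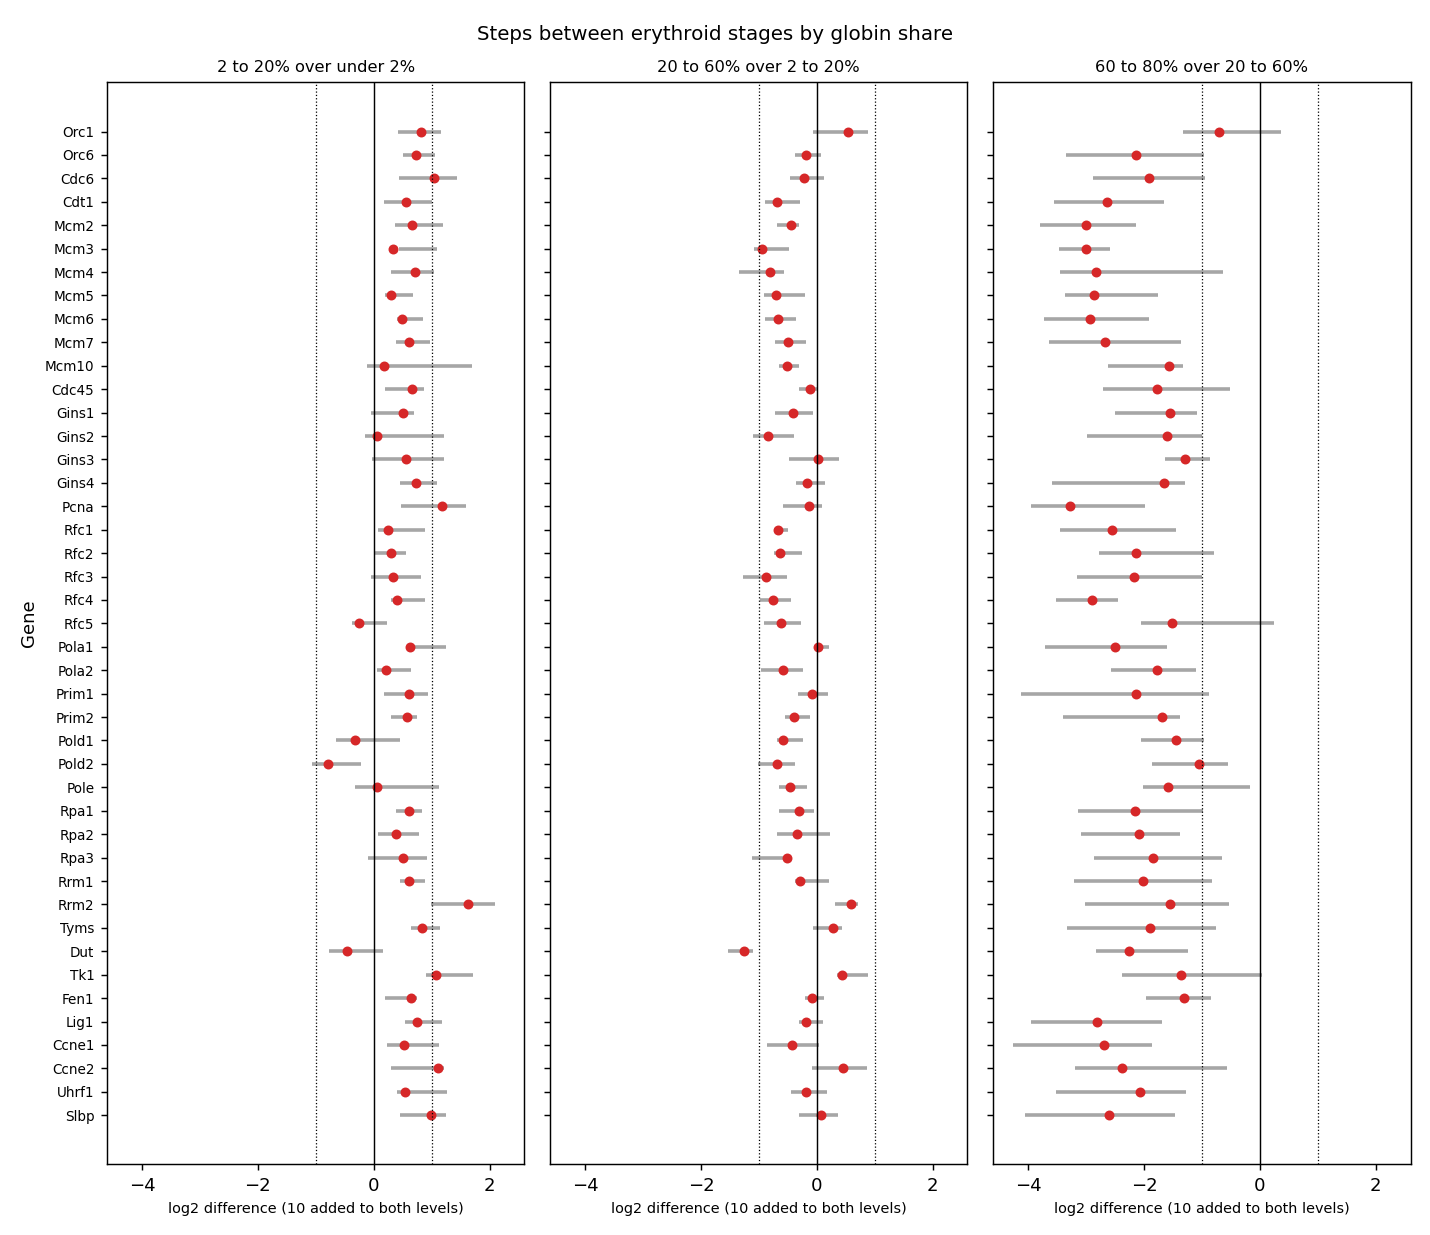
Log2 difference of each of the 43 genes at 3 successive steps between erythroid stages, the later stage over the earlier one, with 10 added to both levels. Points are pooled values, grey bars the range over runs and dotted lines the 2-fold limits. Beyond the limits lie 5 genes at the first step and Dut at the second, and 40 genes counted as lower lie left of the limit at the third.

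In the licensing group, Orc6, a subunit of the origin recognition complex, had levels of 190.3, 323, 284, 57.3 and 32.3 over the 5 stages. Cdc6, which loads the helicase with it, had 86.3, 188, 160.2, 35.5 and 15.1, and Cdt1, its partner in loading, had 123, 184, 111, 9.46 and 19.4. Orc1, the largest subunit of the origin complex, had 29.8, 59.7, 91.5, 52.0 and 5.38. Between 60 to 80% and 20 to 60% globin, Orc6 fell by 2.13 on the log2 scale, Cdc6 by 1.90 and Cdt1 by 2.63, and the runs of the stages did not overlap. Orc1 stood apart: the lowest, median and highest runs were 26.3, 74.1 and 95.8 at 60 to 80%, against 58.7, 82.0 and 149.5 at 20 to 60%, which overlap, and its lower call came 1 step later, with a log2 difference of -2.01 (single runs -3.40 to -1.25) at 80% or more against 60 to 80%.

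The helicase subunits Mcm2 to Mcm7 fell together. Mcm7 had levels of 385, 589.8, 416, 57.1 and 42.5 over the 5 stages, Mcm3 had 419, 528, 270.2, 24.8 and 33.9, Mcm6 had 314, 445, 277, 27.9 and 31.7 and Mcm5 had 321, 399.6, 241, 24.7 and 37.6. All 6 subunits were lower at 60 to 80% than at 20 to 60% globin, with log2 differences between -3.01 for Mcm3 and -2.67 for Mcm7. The lowest, median and highest runs of Mcm3 were 11.1, 20.5 and 61.1 at 60 to 80%, against 182, 269 and 415 at 20 to 60%, and those of Mcm7 were 25.8, 54.2 and 130.1 against 252, 438 and 579. Neither pair overlapped. Mcm2 had 231, 373, 270.2, 25 and 34.9 and Mcm4 had 174, 291, 162, 14.2 and 14.5. Already at 20 to 60% against 2 to 20% globin all 6 were below 0 in every run, with a median log2 difference of -0.68, without passing the 2-fold limit. Mcm7 overlaps Cops6 and Ap4m1 on the other strand, and whether counting used strand is not given in the sources used here. In other groups Orc6, Cdc45, Gins2, Fen1, Lig1 and Ccne2 also overlap genes on the other strand, and Cdt1 overlaps Gm20388 on its own strand.

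All 6 genes that activate the helicase were lower at 60 to 80% than at 20 to 60% globin, by a median log2 of -1.59 (single runs -2.06 to -1.21). Gins4, a GINS subunit, had levels of 69.5, 122, 108, 27.7 and 14.0 over the 5 stages. Mcm10, which helps the activated helicase leave the origin, had 72.9, 83.8, 55.9, 12.3 and 5.38, and Cdc45, a fixed part of the moving helicase, had 42.8, 73.8, 66.8, 12.3 and 7.53. Gins2 had 78.2, 82.1, 41.7, 6.93 and 8.06. At levels this low the added 10 holds log2 differences closer to 0. Gins1 had 29.8, 46.5, 32.8, 4.56 and 2.69 and Gins3 had 15.6, 27.7, 28.3, 5.57 and 2.15. Gins3 was the only gene of the group not below its 2 to 20% level at 20 to 60%, with a log2 difference of 0.02 and runs of -0.48 to 0.38 on both sides of 0.

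Pcna, the sliding clamp, had the largest fall of the 43 at this step. Its levels were 279.8, 644, 589, 51.5 and 61.8 over the 5 stages, and its lowest, median and highest runs were 32.9, 47.2 and 92.6 at 60 to 80%, against 395, 655 and 848 at 20 to 60%, a log2 difference of -3.28 (single runs -3.94 to -1.98). It was also among the genes that rose at the first step, by 1.17 on the log2 scale (single runs 0.47 to 1.59). Of the clamp loader, Rfc4 had 206, 276, 159, 12.7 and 18.8, Rfc2 had 182, 225, 142, 24.5 and 31.7 and Rfc1, its largest subunit, had 149, 180.0, 109, 10.3 and 12.4. Of the smaller subunits, Rfc3 had 94.9, 122, 61.8, 5.91 and 9.68 and Rfc5 had 121, 99.2, 60.9, 14.7 and 20.4. Rfc3 fell by 2.17 and Rfc4, Rfc2 and Rfc1 fell by 2.90, 2.14 and 2.55 at 60 to 80% against 20 to 60%. Rfc5 went against its group at the first step, with a log2 difference of -0.26 (single runs -0.38 to 0.22), which is not a call. Pcna has annotated pseudogenes, with which it may share reads, and Rfc2, Rfc4 and Rfc5 overlap genes on the other strand.

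The polymerase and primase genes did not move as one before the stage at 60 to 80% globin. Prim1, the catalytic primase subunit, had levels of 108, 169.9, 159, 28.5 and 13.4 and Pola1, the catalytic subunit of polymerase alpha, had 78.6, 127, 129, 14.7 and 10.2, both about as high at 20 to 60% as at 2 to 20% globin. Prim2, the other primase subunit, had 62.4, 97.8, 71.8, 15.4 and 6.45, and Pola2, the second subunit of polymerase alpha, had 55.6, 65.8, 40.6, 4.73 and 5.38. Pold1 and Pold2, subunits of polymerase delta, which extends the lagging strand, had their highest levels under 2% globin, with Pold1 at 52.6 at 2 to 20%, against 67.8 under 2%, and Pold2 at 40.6, against 76.9. In UMIs per cell, however, Pold1 was highest at 2 to 20%. Pole, the catalytic subunit of polymerase epsilon on the leading strand, had 52.2, 55.0, 37.1, 5.74 and 3.23. The log2 difference of Pold2 at the first step was -0.78, with every run below 0 (-1.06 to -0.22), opposite to the median of its group at 0.21. All 7 genes of the group were lower at 60 to 80% than at 20 to 60%, from -2.49 for Pola1 to -1.04 for Pold2, and of these only the runs of Pold2 overlapped between the stages.

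The subunits of RPA, which coats single-stranded DNA, followed one course. Rpa2 had levels of 172, 227, 178, 34.5 and 22.6, Rpa1 had 113, 177, 141, 23.8 and 16.7 and Rpa3 had 101, 147, 99.98, 20.8 and 23.7 over the 5 stages. At 60 to 80% against 20 to 60% globin the 3 fell by 2.08, 2.16 and 1.84 on the log2 scale, with no overlap of runs.

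The genes that supply nucleotides differed in timing. Rrm2, the regulated subunit of ribonucleotide reductase, had levels of 286, 905, 1373, 462 and 115 over the 5 stages, with a rise at the first step of 1.63 on the log2 scale (single runs 0.99 to 2.09). Tk1, the thymidine kinase of cycling cells, had 128, 281, 384, 144 and 25.8, and Tyms, which makes thymidylate, had 168, 306, 375, 93.4 and 43. By level all 3 were highest at 20 to 60% globin, but in UMIs per cell all 3 were highest at 2 to 20%. Dut, which removes dUTP so that uracil does not enter DNA, ran the other way with 798, 577, 235, 41.2 and 103: it was highest under 2%. It fell by 1.26 (single runs -1.53 to -1.10) at 20 to 60% against 2 to 20%. Rrm1, the large reductase subunit, had 409.7, 633, 516, 119.6 and 55.9 and was highest at 2 to 20%. At 60 to 80% Rrm2 still had 462, with lowest, median and highest runs of 167, 525 and 1118, against 1047, 1329 and 1655 at 20 to 60%. These runs overlapped, although each run was lower than itself at the earlier stage. Tyms has an annotated pseudogene and Tk1 overlaps Afmid on the other strand.

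Of the genes that finish the lagging strand, Lig1, the ligase that seals it, had levels of 260.4, 446, 390.3, 46.8 and 32.8, and Fen1, the flap nuclease, had 169, 268, 253, 95.6 and 24.2. Lig1 fell by 2.82 at 60 to 80% against 20 to 60% and Fen1 by 1.32, while at 80% or more against 60 to 80% Fen1 fell by a further 1.63 and Lig1 had -0.41 with runs of -1.86 to 1.24. Among the remaining genes, Slbp, which binds the histone mRNA stem loop, had 319, 646, 678, 103 and 44.1, and Uhrf1, which guides maintenance DNA methylation, had 234, 344, 299.7, 63.5 and 37.6. By level, the E cyclins that drive entry into S phase differed in timing: Ccne1 had 166, 244, 178, 19.1 and 11.8 and Ccne2 had 30.1, 76.8, 109, 13 and 5.38. Both were highest at 2 to 20% globin in UMIs per cell. Slbp, Uhrf1, Ccne1 and Ccne2 fell at 60 to 80% against 20 to 60%, by 2.6, 2.07, 2.69 and 2.37. Only for Uhrf1 among these 4 did the runs of the stages overlap.

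**Figure D3:**
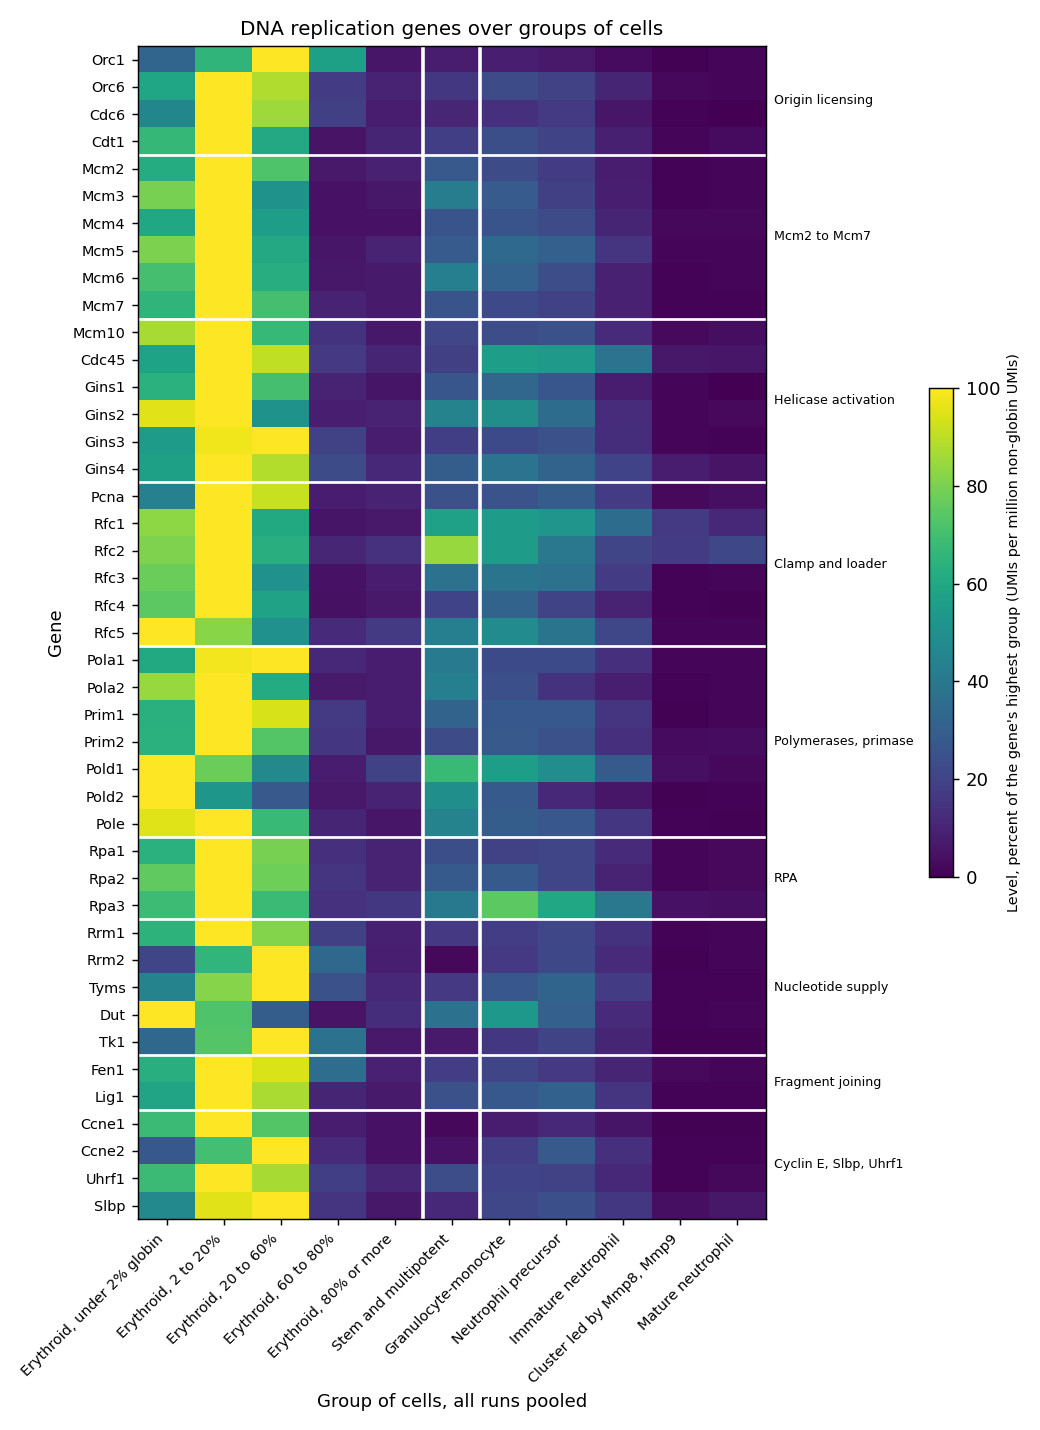
Level of each of the 43 genes in 11 groups of cells as a percentage of the highest group of that gene, with rows ordered by role. The bright band lies in the erythroid stages below 60% globin for every gene. Rfc2 also stands high in stem and multipotent progenitor-like cells, and Rpa3 in granulocyte-monocyte progenitor-like cells.

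By level over the 5 stages, 31 genes were highest at 2 to 20% globin, 8 at 20 to 60% (Rrm2, Tk1, Tyms, Orc1, Ccne2, Slbp, Pola1 and Gins3) and 4 under 2% (Dut, Pold1, Pold2 and Rfc5). In UMIs per cell, every gene except Dut and Pold2 was highest at 2 to 20%. Cells held a mean of 10916 non-globin UMIs at 2 to 20% and 6365 at 20 to 60%. In narrower bins of the globin share, the summed level was 7472 at 0 to 2%, 11601 at 10 to 20%, 10651 at 30 to 40%, 5925 at 50 to 60%, 2494 at 60 to 70% and 904 at 70 to 80%. The last bin in which a gene kept at least 50% of its highest bin was 30 to 40% for 13 genes, 40 to 50% for 12 and 50 to 60% for 14. It was earlier for Pold2 (5 to 10%), Dut (10 to 20%) and Rfc3 (20 to 30%), and later only for Orc1 (60 to 70%). Dut had 798 at 0 to 2%, 371 at 20 to 30% and 163 at 40 to 50% globin, whereas Rrm2 had 286, 1309 and 1444 in the same bins.

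**Figure D4:**
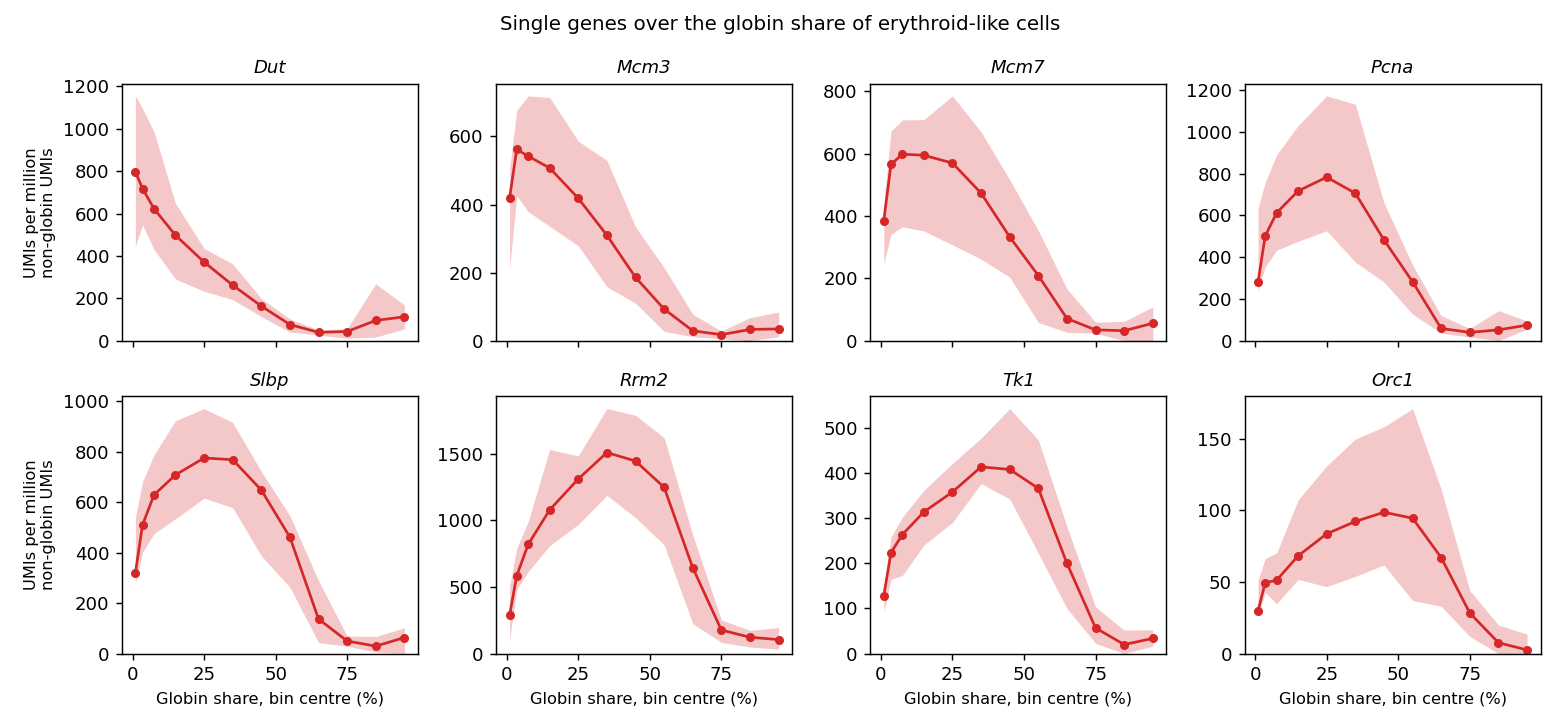
Levels of 8 genes (non-globin CPM) over 12 bins of the globin share of erythroid-like cells. Lines are pooled values and shaded bands the range over runs with at least 20 cells of the bin. Dut falls from the first bin to that of 60 to 70% and is higher again in the last bins, the Mcm genes peak early and Orc1 peaks in the bin of 40 to 50% globin.

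In non-globin CPM, mitosis genes, a list of 36, were at their highest where the replication genes were already lower. Their summed level was 6882 at 0 to 2% globin, 15799 at 10 to 20%, 22509 at 30 to 40%, 31328 at 50 to 60%, 28289.9 at 60 to 70%, 8699 at 70 to 80% and 5115 at 80 to 90%. In UMIs per cell both lists were highest at 10 to 20% globin, at 196 for the mitosis genes and 144 for the replication genes. At 50 to 60% the mitosis genes had 136 UMIs per cell and the replication genes 25.7. At 60 to 80% against 20 to 60% globin, 2 of 36 were lower, with a median log2 difference of -0.50 (single runs -1.23 to 0.20), against 40 of 43 and -2.08 for the replication genes. At 80% or more against 60 to 80%, 33 of 36 mitosis genes were lower, with a median of -2.69. Of the 25 replication genes high enough to be compared there, 4 were lower (Rrm2, Tk1, Fen1 and Orc1), with a median of -0.45 (single runs -1.23 to 0.32) against -0.83 for all genes, of which 33.8% were lower and 4.19% higher. That median was above 0 when centred on the median gene, at 0.38, and without the sixth run, at 0.066. Mki67, a marker of cycling cells, had levels of 1128, 2660.0, 4881, 4031 and 409.6 over the 5 stages, Birc5, of the chromosomal passenger complex, had 424, 1021, 1818, 1315 and 162, and Top2a, the topoisomerase that untangles sister chromatids, had 611, 1114, 1349, 630.4 and 91.9. Ube2c, which carries ubiquitin for the anaphase-promoting complex, had 304, 793, 2423, 3353 and 2968 and was not counted as lower in the last stage.

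**Figure D5:**
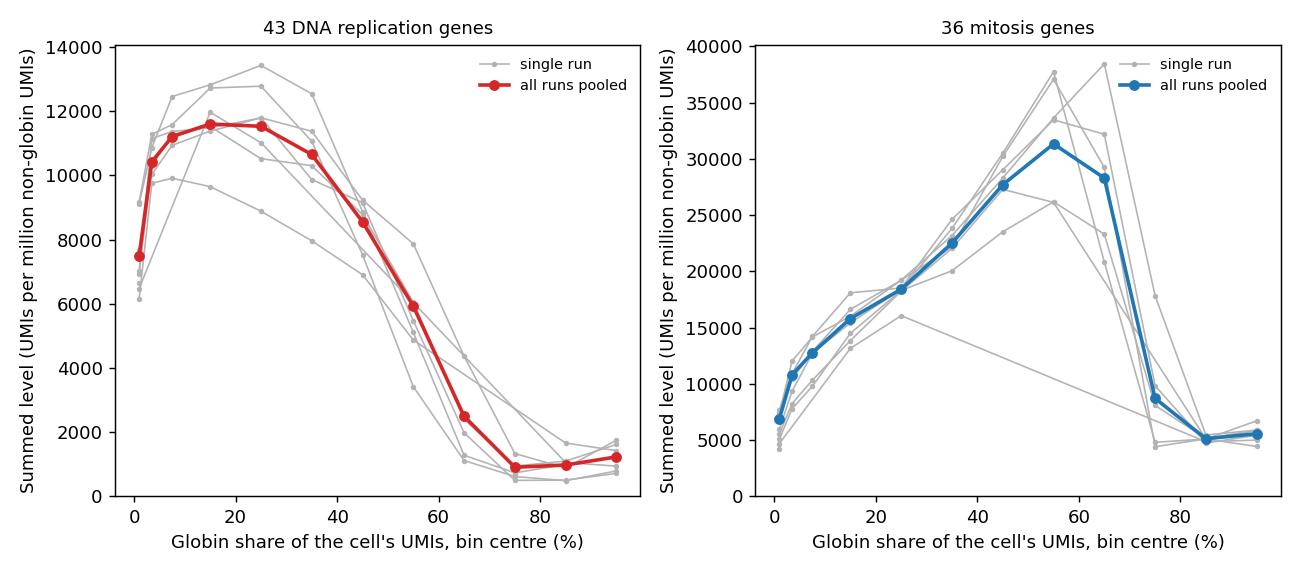
Summed levels (non-globin CPM) of the 43 DNA replication genes, left, and of 36 mitosis genes, right, over bins of the globin share. Grey lines are single runs with at least 20 cells of a bin. The replication genes are at 5925 at 50 to 60% globin, where the mitosis genes reach their highest value of 31328.

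Other genes of replication, a list of 39 that includes accessory factors and chromatin assembly, were mostly lower at the same step. At 60 to 80% against 20 to 60% globin, 26 of the 34 high enough were lower, where 16.9% of all genes were lower, with a median log2 difference of -1.56 (single runs -2.11 to -1.06). Pclaf, a PCNA partner, had levels of 226, 496, 458, 81.6 and 46.2 over the 5 stages, Gmnn, the inhibitor of Cdt1, had 224, 384, 384, 104 and 38.2, and Supt16, a subunit of the histone chaperone FACT, had 448, 436, 365, 109 and 46.8. Rnaseh2c, a subunit of the nuclease that removes RNA from DNA, had 323, 369.9, 371, 294 and 159.7 and was not counted. Of a list of 17 further nucleotide enzymes, 9 were high enough at that step and 5 were lower. Impdh2, of guanine nucleotide synthesis, had 481, 215, 75.4, 21.5 and 40.9 and Nme1, a nucleoside diphosphate kinase, had 731, 408, 108, 30.2 and 93.5, both highest under 2% globin. Dtymk, the kinase after Tyms, had 307, 363, 214, 31.9 and 44.1, and Dck, a salvage kinase, had 83.5, 216, 384, 212 and 44.6.

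Relative to its own level, the stage at 60 to 80% globin varied most of the 5 between runs. The summed level of the 43 genes was 868 and 1026 in 2 runs, 1571 and 1822 in 2 others, and 2855, 3341 and 3450.2 in the remaining 3. The 2 lowest runs had median globin shares of 71.1 and 71.3%, the middle 2 had 67.5 and 70.3%, and the 3 highest had 69.9, 68.9 and 65.7%, the last in only 21 cells. Mitosis genes summed to 12922 and 17839 in the 2 lowest runs, 26019 and 17296.5 in the middle 2, and 17931, 31471 and 28368 in the 3 highest, so that the order of runs was not the same for both lists. RNA of other cells moved with the stage as well: 26 markers of immature and mature neutrophils summed to 299.7, 339, 574, 1139.9 and 2106 over the 5 stages, with runs of 319 to 5339 at 80% or more and 93.3 to 863 under 2%. All 26 were detected from 2% globin upward and 25 under 2%. Their part in the levels of the last stages was not tested.

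Counted per cell at equal depth, the same fall between stages appeared. Each cell was thinned to 500 non-globin UMIs, which left out 1, 57, 51, 42 and 302 cells of the 5 stages. A cell then held a mean of 3.35, 4.97, 4.4, 0.869 and 0.535 UMIs of the 43 genes. At least 3 were found in 62.9% (exact 95% interval 60 to 65.7) of cells under 2% globin, 78.5% (76.6 to 80.4) at 2 to 20%, 63.4% (61.7 to 65.1) at 20 to 60%, 8.57% (7.40 to 9.86) at 60 to 80% and 2.51% (1.80 to 3.40) at 80% or more. The intervals cover counting error only. Without thinning the shares were 92.6, 89.1, 91.5, 46.5 and 10.8%, at median depths of 3189.5, 8068, 5149, 2333 and 812 non-globin UMIs. Mature neutrophil-like cells, which no longer divide, had 0.686% after thinning, from a median depth of 4450.0 UMIs. In the runs that kept 20 cells after thinning, the share at 60 to 80% spanned 1.25 to 18.1% over 5 runs, against 55.4 to 71.6% over 8 runs at 20 to 60%, with no overlap. Not every run of the 60 to 80% stage enters this range.

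Erythroid cells at 2 to 20% globin exceeded the progenitors beside them. That stage at 2 to 20% globin had 34 of the 43 genes higher than the 587 stem and multipotent progenitor-like cells, where 15.1% of all genes were higher, with a median log2 difference of 1.74 (single runs 1.35 to 2.24) against -0.12 for all genes. Against the 983 granulocyte-monocyte progenitor-like cells, 34 were higher where the background was 24.3%, with a median of 1.65 (single runs 1.24 to 1.76) against 0.34. The summed level was 11251 at 2 to 20% globin, against 2990.4 in stem and multipotent progenitor-like cells (lowest, median and highest run 2039, 3039 and 3995) and 3392 in granulocyte-monocyte progenitor-like cells (3191, 3415 and 3891). No run of either progenitor reached the lowest run of the erythroid stage.

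Single genes differed widely in this contrast. Rrm2 was at 905 at 2 to 20% globin, against 28.0 in stem and multipotent progenitor-like cells and 229 in granulocyte-monocyte progenitor-like cells. Ccne1 was at 244, against 5.59 and 18.3 in the same groups, which are the largest log2 differences of the 43 after Rrm2 against the stem group, at 4.02 and 3.16. The genes not counted as higher against stem and multipotent progenitor-like cells were Rfc1, Rfc2, Rfc5, Gins2, Pola2, Pold1, Pold2, Pole and Dut. Rfc2 was at 225 at 2 to 20% globin, with runs of 144 to 286, against 190.2 with runs of 133 to 217 in stem and multipotent progenitor-like cells, which overlap.

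In the neutrophil line the summed level of the replication genes stayed below that of the erythroid stages under 60% globin, and it was lower in immature than in precursor cells and lower again in mature cells. It was 3392 in granulocyte-monocyte progenitor-like cells, 3078 in 427 neutrophil precursor-like cells, 1637 in 1661 immature neutrophil-like cells and 304 in 731 mature neutrophil-like cells. A cluster of 1346 cells led by Mmp8, Mmp9 and Retnlg had 9 mature and 6 immature neutrophil markers among its 50 leading genes. It was left without a stage and had a summed level of 257. The runs spanned 2845 to 3179.9 in precursors, 1282 to 2128 in immature cells and 244 to 408 in mature cells, with no overlap between these stages. Between precursors and granulocyte-monocyte progenitors, 38 of the 43 genes could be compared and 0 were higher and 0 lower, with a background of 1.75% higher and 8.41% lower. The median log2 difference was -0.13 (single runs -0.19 to 0.02), against -0.23 for all genes, and 0.10 when centred on the median gene.

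Immature against precursor cells gave 3 lower of 37 genes (Mcm3, Mcm6 and Dut), where 3.51% of all genes were lower and 1.71% higher, and a median log2 difference of -0.75 (single runs -0.77 to -0.64) against -0.13. A precursor cluster formed in the main clustering and in that at resolution 2, where 20 genes were lower at this step, and in no other clustering tried. In mature against immature cells 26 of 28 genes were lower, with a background of 22.0% lower and 17.6% higher, and the median was -1.55 (single runs -2.0 to -1.44) against -0.09. Mcm4 and Rfc2 were not counted. At cluster resolution 2 this count was 2. Mature cells against granulocyte-monocyte progenitors gave 35 lower of 35, with a background of 42.2% and a median of -2.29 against -0.69.

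Rrm2 had levels of 229, 299, 166 and 16.3 over granulocyte-monocyte progenitor, precursor, immature and mature cells. Pcna had 165, 191, 115 and 25.7, and Dut had 426, 244, 98.1 and 13.6. Of these 4 groups, Dut was highest in the progenitors and Rrm2 and Pcna in the precursors. Gins1 had 0 UMIs in mature cells, where 3 UMIs would be a level of 0.907, against 3.68 in immature cells. The mitosis list gave the following counts: 0 of 36 mitosis genes were lower in immature than in precursor cells, with a median log2 difference between -0.32 and 0.13 in single runs, and all 36 were lower in mature than in immature cells, with a median of -2.66. Whether the lists differ was not tested.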

How the data were processed

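Gene-by-cell UMI counts (whole numbers) were analysed as the authors deposited them, in 1 table pooling 8 10x libraries. Per the submitters' processing notes, Cell Ranger 5.0.0, Seurat 3.1.5 and build mm10 were used. Their parameters and the use of strand are not stated in these notes or the labels. The 43 members and all gene lists were chosen with earlier results of these data known.

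The columns carry barcodes without library names, so no column could be tied to a mouse, a tissue or a genotype, and transgenic and control mice were not compared. Barcodes below 200 detected genes or above 20% mitochondrial UMIs would have been left out, which took none, (Python 3.11.15, scanpy 1.11.5, leidenalg 0.10.2). Clustering used 2000 variable genes without the 43 members and other cell cycle genes, 30 components and 15 neighbours at resolution 1. It gave 31 clusters. A cluster was named "like" the type with most markers among its 50 leading genes, where at least 3 of its markers were detected. No name was given where another list had at least as many there or among the 10 leading genes. The doublet caller marked 17 cells (0.0682%), too few to have worked, and these were removed. After the clusters were seen, a shallow cluster led by eosinophil genes was left unnamed. A cluster with both immature and mature neutrophil markers among its leading genes was then kept apart, and 2593 cells had no name.

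UMIs were summed over the cells of each stage and divided by non-globin UMIs. Differences are log2 ratios with 10 added, which holds low genes closer to 0, and the 2-fold rule with the sign of every run was tested on simulated data. In the erythroid step simulated, the rule missed most true changes of about 2-fold, so a low count does not show that genes were unchanged. In each role the text names the up to 4 members, and in each other list the up to 4 genes, of highest level over all erythroid-like cells, and members that went against the median of their role; the remaining members were added with their values after these were seen. Alternatives were plain totals, centring on the median gene, an added 1, no minimum level, the mean of single runs, other cell filters, resolutions and globin bounds, cycle genes in the clustering and leaving out each run. Chosen after seeing the data were a minimum of 2000 UMIs, leaving out the highest 6% of doublet scores, and leaving out repeated barcodes.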

Additional observations from a re-analysis of the deposited data

How the results depend on the processing

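The table is 1 pooled sample without a test, so the counts of genes past 2-fold with 1 sign in every run are what the settings could move. Under every setting tried, 35 to 42 of the 43 genes were lower at 60 to 80% against 20 to 60% globin and 32 to 43 against 2 to 20%. Plain totals that include globin shifted the median of all genes by -0.13, -0.47, -0.62 and -0.43 at the 4 successive erythroid steps. With them, 2 genes in place of 5 were higher at 2 to 20% against under 2% globin, as with the mean of single runs (2), and 17 in place of 1 were lower at 20 to 60% against 2 to 20%. With bounds of 1, 10, 50 and 75% globin, 0 genes were lower at that step and 23 in place of 4 at the last step. An added 1 in place of 10 gave 1 lower gene in place of 0 in neutrophil precursors against granulocyte-monocyte progenitors, and 13 in place of 3 in immature cells against precursors. Cluster resolution 2 gave 20 for immature cells against precursors and 2 in place of 26 for mature against immature cells, of 21 compared. The cause was not tested. No share of all genes is given for these other settings, so their counts have no background here. The median at the last erythroid step, -0.45, turned to 0.38 when centred on the median gene and ranged from -0.71 to 0.066 with 1 run left out (0.066 without the sixth); the median of precursors against progenitors, -0.13, turned to 0.10 when centred. Leaving out 1 run gave 4 to 6 higher genes at the first erythroid step, 39 to 41 lower at the third, 4 to 7 at the fourth (7 without the third run) and 3 to 5 for immature cells against precursors (5 without the first run). No neutrophil precursor class formed under 5 other clusterings (other cell filter, resolution 0.5, cycle genes used, doublet calls kept, highest 6% of doublet scores left out), which give no value there. No paired analysis was possible because no column is tied to a labelled replicate and no test was made; stages were compared within runs only by the sign of each run. Depth limits the stage at 80% or more, where cells held a median of 812 non-globin UMIs.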

Other observations

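Histone genes were followed over the same stages, in a list of 19. At 2 to 20% against under 2% globin, 11 of the 16 high enough were higher, where 6.01% of all genes were, and at 20 to 60% against 2 to 20%, 10 of 19 were higher, where 6.03% of all genes were, with medians of 1.15 and 1.06 on the log2 scale. At 60 to 80% against 20 to 60%, 2 of 19 were lower (all genes 16.9%), with a median of -0.72 (single runs -2.08 to 0.29), and at 80% or more against 60 to 80%, 17 of 18 were lower (all genes 33.8%). Their summed level in non-globin CPM was highest at 40 to 50% globin, at 25876, whereas their UMIs per cell were highest at 20 to 30%, at 165. Hist1h1b, a linker histone, had levels of 557, 1068, 1731, 954 and 145 non-globin CPM over the 5 stages. Hist1h2ap, an H2A gene, had 859, 3788, 9234, 3326 and 469.9, and Hist1h2ae, another, had 194, 724, 1888, 865 and 155. H2afz, a variant H2A gene also transcribed outside S phase, had 2196, 2884, 2888, 969.8 and 571. Most histone mRNA has no poly(A) tail, and its capture here was not tested.

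Of 30 genes that control the passage from G1 to S phase, 19 were high enough at 60 to 80% against 20 to 60% globin. There 2 were higher and 5 lower, where 6.40% of all genes were higher and 16.9% lower, and 14 differences were below 0, with a median of -0.90 (single runs -1.78 to 0.06). Tfdp2, a partner of E2F proteins, had levels of 122, 279.9, 732, 2371 and 2599.8 over the 5 stages and was higher at 60 to 80% than at 20 to 60% globin, by 1.68 on the log2 scale (single runs 1.04 to 1.94). E2f2, an activating E2F, had 124, 447, 1029.8, 1548 and 938, and its difference of 0.58 at that step did not pass the 2-fold limit. Cdkn2d, an inhibitor of Cdk4 and Cdk6, had 21.4, 118, 790.3, 910.2 and 91.4, whereas Ccnd3, the cyclin that activates those kinases in erythroblasts, had 293, 920.4, 609, 104 and 70.4 and fell by 2.44 (single runs -3.37 to -2.10) at 60 to 80% against 20 to 60%. By level, E2f2 and Tfdp2 RNA were both high at 60 to 80% globin, where 40 of the 43 replication genes were lower. In UMIs per cell, E2f2 was lower at 60 to 80% than at 20 to 60% globin, whereas Tfdp2 was higher.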
